A study of Homo sapiens with 6 samples.

Results

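The inflammatory chemokines described here are 10 genes chosen by name: CXCL1, CXCL2, CXCL3, CXCL5, CXCL6 and CXCL8, which are CXC chemokines with an ELR motif, the CC chemokines CCL2 and CCL20, and the transmembrane chemokines CXCL16 and CX3CL1. Rows of the deposited count table were found for 9 of the 10, with 29 transcripts, among 30717 genes in all. CX3CL1 was not analysed here. T24 and UMUC3, both established lines from human bladder carcinomas, were profiled by RNA sequencing with circPTK2 knocked down and in controls; circPTK2 is a circular transcript of the gene PTK2. Each line gave 2 circPTK2 knockdown libraries and 1 control library, and no other agent or allele is named in the labels. Titles name siRNAs numbered 1 and 2 while the design text names sh constructs, so the knockdown reagent is not settled by these sources. In T24 the siRNA number of a title and the number of its data column are swapped, and replicate numbers here follow the titles.

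Chemokines are small secreted or membrane-anchored proteins that attract leukocytes through G protein-coupled receptors. The ELR CXC chemokines act mainly on neutrophils through CXCR1 and CXCR2, and their genes sit side by side on human chromosome 4. NF-kB and AP-1 are the best known inducers of these genes in epithelial and carcinoma cells stimulated with interleukin-1 or TNF, and their mRNAs are short-lived.

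The libraries held 65111683 to 72362436 counts, of which 55071837 to 60780176 fell in named genes. All 9 chemokines with rows passed the filter on low counts, CCL20 with 0 to 13 counts per library. PTK2 itself stood at 67.2 and 63.0 CPM in T24 knockdown libraries against 45.9 CPM in the T24 control, and at 161 and 393 CPM in UMUC3 knockdown libraries against 124 CPM in the UMUC3 control. The gene table gives no separate count of the circle, and the knockdown was not checked here. CPM values are counts scaled to the library's total in named genes, with edgeR's TMM factor. In bulk RNA, fewer cells that express a gene and less RNA per cell cannot be told apart. The paired knockdown libraries of a line carry different siRNA numbers in their titles. If these mark different reagents, the pair were separately treated, and their spread mixes differences between reagents with replicate noise. If they mark repeats of the same reagent, nothing in the labels says that the cultures were separate, and the spread may be technical. The p-values below therefore reflect only how far these libraries differ.

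The upstream sequences of the 6 ELR CXC genes are shown because these genes share a kappaB motif, the DNA element bound by NF-kB, at nearly the same distance from the start. Each line gives bases -120 to -21 relative to the RefSeq gene start, from RefSeq on GRCh38.p14, read 5′ to 3′ on the strand of the gene. Capitals mark the 9-base kappaB core. Some GENCODE models of these genes start further upstream.
CXCL1, chr4:73869273-73869372, plus strand: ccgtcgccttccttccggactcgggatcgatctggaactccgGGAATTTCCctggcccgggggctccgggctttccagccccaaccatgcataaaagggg
CXCL2, chr4:74099216-74099315, minus strand: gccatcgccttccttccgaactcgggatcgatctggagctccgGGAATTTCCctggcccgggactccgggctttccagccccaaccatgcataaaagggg
CXCL3, chr4:74038710-74038809, minus strand: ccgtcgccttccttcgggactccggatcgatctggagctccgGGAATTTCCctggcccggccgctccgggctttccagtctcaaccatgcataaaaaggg
CXCL5, chr4:73998698-73998797, minus strand: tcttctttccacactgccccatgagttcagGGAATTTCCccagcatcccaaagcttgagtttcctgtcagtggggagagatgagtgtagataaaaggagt
CXCL6, chr4:73836558-73836657, plus strand: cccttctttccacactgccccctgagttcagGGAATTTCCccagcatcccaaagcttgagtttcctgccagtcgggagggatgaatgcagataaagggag
CXCL8, chr4:73740449-73740548, plus strand: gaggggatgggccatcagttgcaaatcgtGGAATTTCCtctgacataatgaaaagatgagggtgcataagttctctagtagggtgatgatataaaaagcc

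The core GGAATTTCC lay within the 250 bases before the start of 6 of the 7 chemokines with an entry in the RefSeq promoter table, all of them ELR CXC genes, and in 145 of all 35116 promoters of that length (0.413%). The 10-base form, which has 1 more G before the core, was present in CXCL1, CXCL2, CXCL3, CXCL5 and CXCL6 and in 0.142% of promoters. In CXCL8 the base before the core differs, and the longer form was not matched. The core began at -78 in CXCL1 and CXCL3, at -77 in CXCL2, at -90 in CXCL5, at -89 in CXCL6 and at -91 in CXCL8. The AP-1 motif TGANTCA matched CXCL8 alone of the 7, at -137, outside the window printed, and 6.57% of all promoters hold it. The C/EBP motif TTGCNNAA matched CXCL2, at -188 on the opposite strand, and 9.05% of promoters hold it. The printed CXCL8 window holds ttgcaaat shortly before the core, which differs from these letters only at the last base and was not matched. TATAAA matched CXCL8 and CCL20 (10.7% of promoters). The related CATAAA (9.64%) matched CXCL1, CXCL2 and CXCL3 at -31 on the strand of the gene. In CCL20 it matched at -114 on the opposite strand. GGGCGG, the GC box, matched CXCL1, CXCL3 and CXCL6 (42.6%). Both strands were searched and the letters were chosen with these sequences in view. A match is a description of letters and not evidence of binding.

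**Figure D1:**
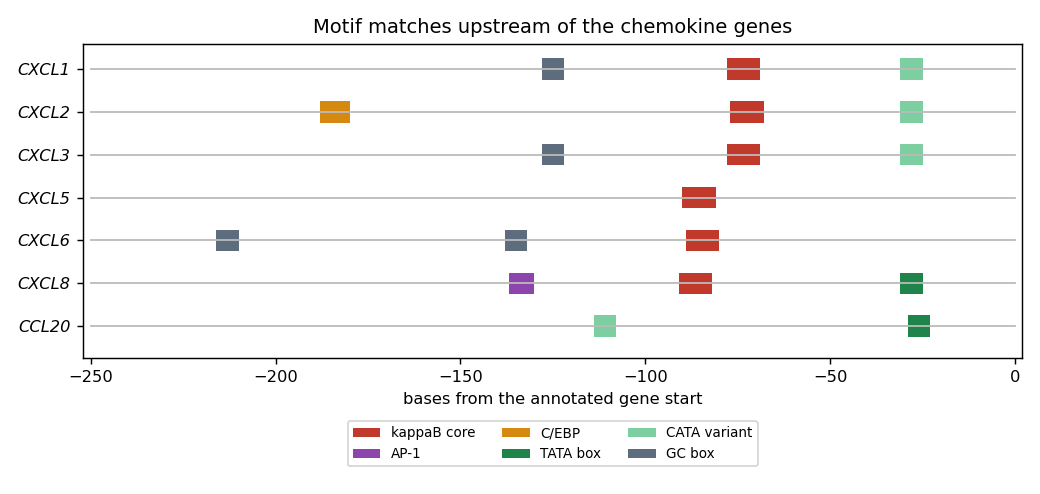
Positions of motif matches in the 250 bases before the annotated start of 7 chemokine genes, 1 row per gene, with the horizontal axis in bases from the start and colours for the motifs. The kappaB core sits between -91 and -69 in the 6 ELR CXC genes, and CCL20 has no match to it.

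By their printed windows the ELR CXC genes fell into near-identical sets. CXCL1 and CXCL2 shared 94.1% of aligned positions, CXCL1 and CXCL3 shared 92.0%, and CXCL2 and CXCL3 shared 89.2%. CXCL5 and CXCL6 shared 90.1%. Between these sets, and with CXCL8, identity was 46.3 to 57.0%. The transcripts overlapped less than the upstream windows: of the 50-base windows of the main transcript, 5.73% of CXCL1, 9.24% of CXCL2 and 5.26% of CXCL3 recurred in another of the 9 chemokines, and none did for the other 6. How such reads were assigned is not stated, and these shares do not bound the error of a scarce paralog. At even coverage, the windows that CXCL1 shares with CXCL2 would hold 15.6 and 15.6 CPM of CXCL1 in T24 knockdown libraries against 5.93 CPM in the T24 control, more than the whole CXCL2 value in each. Those it shares with CXCL3 would hold 1.56 and 1.56 CPM against 0.593 CPM. At even coverage and by 50-base windows, reads of CXCL1 could make up all of the CXCL2 value and part of the CXCL3 value in T24. The T24 direction of both is therefore uncertain. Longer or paired reads were not considered. In UMUC3 the same windows would hold 4.02 and 4.11 CPM of CXCL1 in knockdown libraries against 7.78 CPM in the control for CXCL2, and under 1 CPM for CXCL3, less than the values of those genes.

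The values below are those by which the chemokines were chosen, each knockdown library against the control of its line and line against line. They are given as descriptions, with no p for a single chemokine. Counts of chemokines past a threshold stand beside the share of all genes, and nothing is read from them.

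CXCL1, CXCL8 and CXCL6, the neutrophil attractants with the highest mean CPM, stood higher in T24 knockdown libraries than in the T24 control. CXCL1 and CXCL8 stood lower in UMUC3 knockdown libraries than in the UMUC3 control, and CXCL6 differed little there. CXCL1 (ENSG00000163739, GRCh38 chr4:73869393-73871242, plus strand) was at 273 and 273 CPM in T24 knockdown libraries against 104 CPM in the T24 control (95% exact interval 101 to 106, counting error only). Its log2 fold change was 1.40 ± 0.10 (SE). In UMUC3 it was at 70.3 and 71.8 CPM in knockdown libraries against 136 CPM in the control (133 to 139), a log2 fold change of -0.94 ± 0.09. The paired knockdown libraries of a line differed by under 2 CPM. Both lay above the control in T24, as for 34.7% of tested genes, and below it in UMUC3, as for 37.1%.

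CXCL8 (ENSG00000169429, chr4:73740506-73743716, plus strand), also called interleukin-8, showed the largest T24 fold among the ELR CXC genes. It was at 218 and 245 CPM in T24 knockdown libraries against 59.3 CPM in the T24 control (57.3 to 61.2), a log2 fold change of 1.96 ± 0.20. In UMUC3 it was at 16.7 and 21.0 CPM in knockdown libraries against 39.2 CPM in the control (37.6 to 40.9), with -1.05 ± 0.18.

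CXCL6 (ENSG00000124875, chr4:73836497-73849064, plus strand), known as granulocyte chemotactic protein, moved far less in UMUC3 than in T24. It was at 95.3 and 94.9 CPM in T24 knockdown libraries against 28.3 CPM in the T24 control, a log2 fold change of 1.75 ± 0.15. In UMUC3 its knockdown libraries stood at 8.84 and 9.08 CPM against 9.76 CPM in the control. The UMUC3 log2 fold change of -0.12 ± 0.15 was smaller than its SE, and 1 of the 2 knockdown values lay inside the control's counting interval of 8.96 to 10.6 CPM.

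CXCL2 and CXCL3, close paralogs of CXCL1, were at a few CPM in T24 and several times higher in UMUC3. CXCL2 (ENSG00000081041, chr4:74097035-74099293, minus strand) was at 3.77 and 2.57 CPM in T24 knockdown libraries against 2.19 CPM in the T24 control, whose interval of 1.83 to 2.60 CPM includes the second library. In UMUC3 it was at 15.9 and 13.7 CPM in knockdown libraries against 29.9 CPM in the control, a log2 fold change of -1.01 ± 0.27. The T24 log2 fold change was 0.53 ± 0.37, at a level that reads shared with CXCL1 could make up.

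CXCL3 (ENSG00000163734, chr4:74036589-74038807, minus strand) was at 3.04 and 1.87 CPM in T24 knockdown libraries against 1.35 CPM in the T24 control, and at 16.4 and 15.4 CPM in UMUC3 knockdown libraries against 47.5 CPM in the UMUC3 control. The log2 fold changes were 0.87 ± 0.425 in T24 and -1.58 ± 0.28 in UMUC3. Much of its count was on transcripts that GENCODE does not class as protein coding, 36.5 and 44.1% in T24 knockdown libraries against 43.8% in the T24 control, and 66.6 and 78.3% in UMUC3 knockdown libraries against 58.3% in the UMUC3 control. On its coding transcript alone it stood at 1.93 and 1.04 CPM in T24 knockdown libraries against 0.757 CPM in the T24 control. In UMUC3 that transcript stood at 5.49 and 3.35 CPM in knockdown libraries against 19.8 CPM in the control. These are the directions of the whole gene. The T24 direction stays uncertain here too. At even coverage, windows that CXCL1 shares with CXCL3 would hold 1.56 and 1.56 CPM of CXCL1 in T24 knockdown libraries against 0.593 CPM in the control.

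CXCL5 (ENSG00000163735, chr4:73995642-73998779, minus strand), another CXCR2 ligand, was found almost entirely in T24. It was at 17.2 and 16.5 CPM in T24 knockdown libraries against 14.3 CPM in the T24 control, a log2 fold change of 0.24 ± 0.24. Its UMUC3 counts were 0 and 0 in knockdown libraries and 3 in the control, so no fold is given in that line. Over the 3 libraries of each line, 2852 counts in T24 stood against 3 in UMUC3, a ratio of 921 (95% exact interval 315 to 4469, counting error only).

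**Figure D2:**
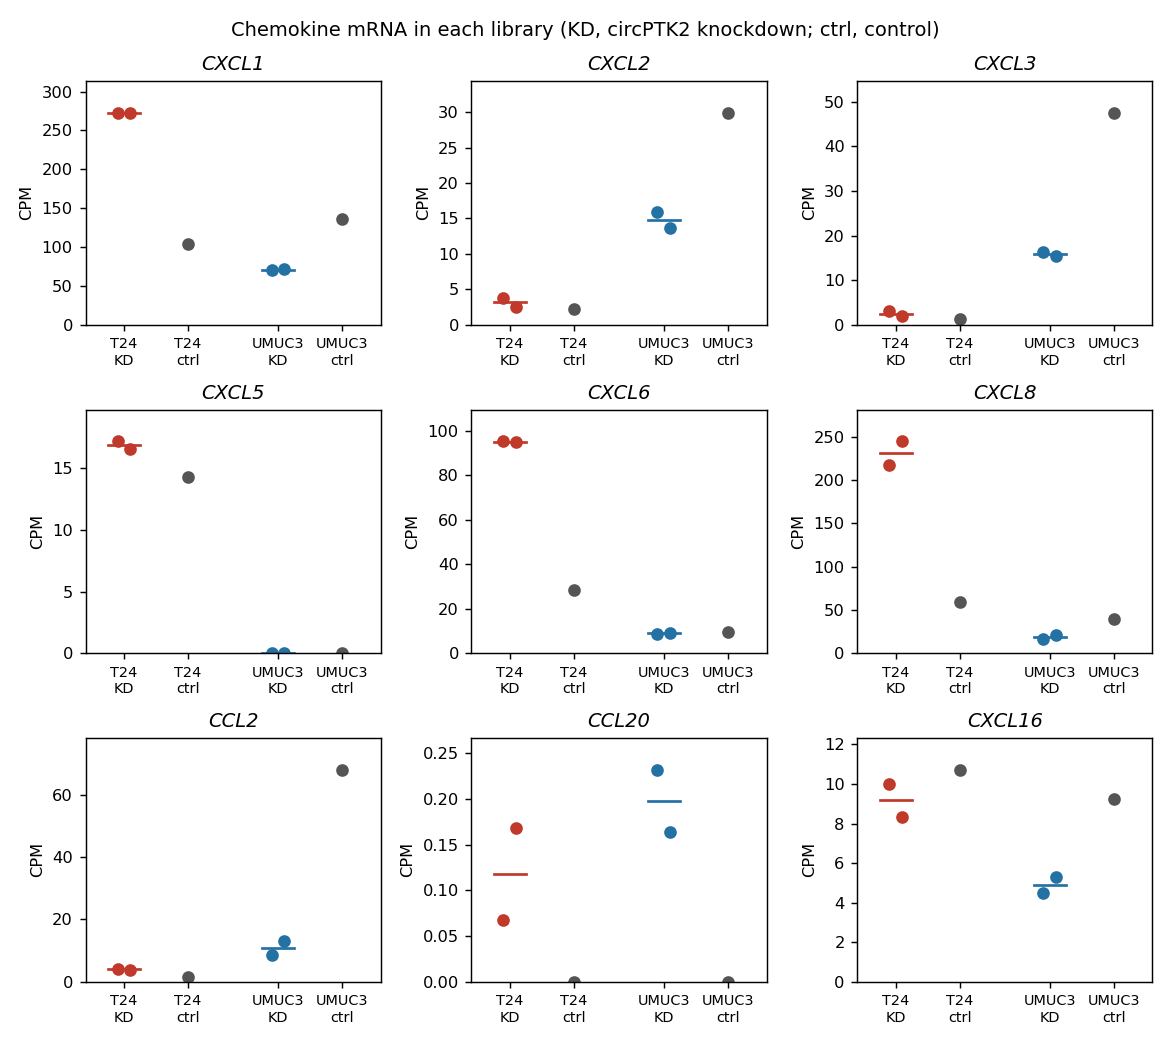
Level of each chemokine mRNA in CPM (vertical axes, from 0, on different scales), with knockdown libraries left of the control for each line; dots are libraries and bars are means of 2 libraries. CXCL1, CXCL6 and CXCL8 are higher after knockdown in T24, and CCL2, CXCL1 and CXCL3 are lower after knockdown in UMUC3.

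CCL2 (ENSG00000108691, GRCh38 chr17:34255218-34257203, plus strand), a monocyte attractant that acts through CCR2, had the largest UMUC3 difference of the chemokines above the count floor. It was at 8.70 and 13.2 CPM in UMUC3 knockdown libraries against 68.0 CPM in the UMUC3 control (65.8 to 70.2), a log2 fold change of -2.63 ± 0.29. In T24 it was at 4.20 and 3.75 CPM in knockdown libraries against 1.48 CPM in the control (1.19 to 1.83), with 1.42 ± 0.42. Both knockdown libraries lay above the control in T24, as for 34.7% of tested genes, and below it in UMUC3, as for 37.1%. The paired UMUC3 knockdown libraries differed from each other far less than from the control.

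CCL20 (ENSG00000115009, chr2:227805739-227817564, plus strand), the ligand of CCR6, was near the limit of detection. It had 4 and 10 counts in T24 knockdown libraries against 0 in the T24 control, and 13 and 10 counts in UMUC3 knockdown libraries against 0 in the UMUC3 control. A count of 0 allows up to 3 counts, 0.0505 CPM in the T24 control and 0.0537 CPM in the UMUC3 control. Set against that limit for the single control library, the observed level of the pooled knockdown pair was 2.33-fold in T24 (14 counts) and 3.66-fold in UMUC3 (23 counts). For single libraries the ratio was 1.33- and 3.33-fold in T24 and 4.315- and 3.06-fold in UMUC3. These ratios carry no error of the knockdown counts, so they are not lower bounds. Its counts were spread over 4 transcripts, and no transcript had counts in every knockdown library.

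CXCL16 (ENSG00000161921, chr17:4733526-4739922, minus strand), a transmembrane ligand of CXCR6 that ADAM10 can shed, did not follow the ELR CXC genes in T24. It was at 10.02 and 8.33 CPM in T24 knockdown libraries against 10.7 CPM in the T24 control (9.90 to 11.6), a log2 fold change of -0.22 ± 0.25. In UMUC3 it was at 4.51 and 5.27 CPM in knockdown libraries against 9.22 CPM in the control (8.44 to 10.1), with -0.91 ± 0.26.

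**Figure D3:**
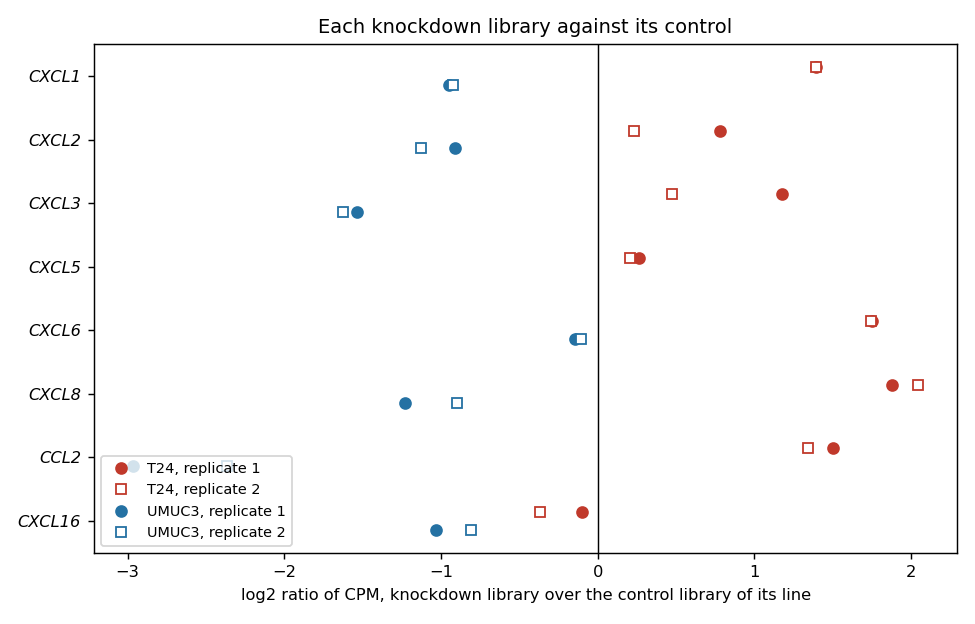
Log2 ratio of CPM in each knockdown library over the control library of its line (horizontal axis) for 8 chemokines (rows), with T24 in red and UMUC3 in blue; CCL20 and the UMUC3 values of CXCL5 have no ratio because of counts of 0. For CXCL1, CXCL2, CXCL3, CXCL6, CXCL8 and CCL2 both T24 libraries lie above 0 and both UMUC3 libraries below 0, and CXCL16 lies below 0 in all 4.

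Of the 9 chemokines, 8 had both T24 knockdown libraries above the T24 control, as did 34.7% of all 20721 tested genes, and CXCL16 had both below it, as did 37.3%. CCL20 is among the 8, but with 0 counts in both controls it passed the filter through knockdown libraries alone. In UMUC3, 8 of 9 had both knockdown libraries below the control, against 37.1% of tested genes. Both together held for 7 of 9, CXCL5 with its 0 to 3 UMUC3 counts included, against 12.1% of tested genes. The median log2 fold change over the 9 was 1.40 in T24 and -1.01 in UMUC3, with a median of 0.00 over all tested genes in each. None of the 9 passed edgeR's adjusted threshold of 0.05 over all genes in T24, where 0.135% of genes did, in UMUC3, where 0.647% did, or in the difference between the lines, where 0.0579% did. At an unadjusted p under 0.05 there were 4 in T24, 6 in UMUC3 and 6 in the difference, against 2598, 3490 and 2789 of all genes, and DESeq2 called 4, 4 and 5 of them, against 963, 1700 and 1120 of all genes. Since these contrasts chose the chemokines, nothing is read from the counts.

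Line against line, the chemokines split. Every T24 library lay above every UMUC3 library for CXCL5, CXCL6 and CXCL8, as for 27.2% of tested genes. Every T24 library lay below every UMUC3 library for CXCL2, CXCL3 and CCL2, as for 25.1% of tested genes. CXCL1, CXCL16 and CCL20 overlapped. With knockdown and control weighted equally, the T24 over UMUC3 log2 difference was 2.47 ± 0.11 for CXCL6, 2.104 ± 0.14 for CXCL8, -3.00 ± 0.235 for CXCL2, -3.92 ± 0.26 for CXCL3 and -3.49 ± 0.26 for CCL2. It was 0.77 ± 0.07 for CXCL1 but turned to -0.39 between the control libraries alone. Between the controls it was 1.54 for CXCL6, 0.595 for CXCL8, -3.77 for CXCL2, -5.14 for CXCL3 and -5.52 for CCL2. Between the lines 7 of the 9 chemokines passed, all but CXCL16 and CCL20, against 41.4% of all genes.

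Per kilobase of transcript, CXCL1 was the most abundant of the 9 in all 6 libraries. It reached 255 and 255 CPM per kb in T24 knockdown libraries against 96.3 in the T24 control, and 66.8 and 69.7 CPM per kb in UMUC3 knockdown libraries against 132 in the UMUC3 control. In T24 libraries CXCL8, CXCL6 and CXCL5 followed in that order. In the UMUC3 control CCL2, at 89.6 CPM per kb, and CXCL3, at 44.0, came next, while in the UMUC3 knockdown libraries CCL2 (11.4 and 17.3), CXCL3 (15.1 and 14.4), CXCL2 (14.6 and 12.9) and CXCL8 (10.1 and 14.2) exchanged places between the paired libraries.

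The ELR CXC genes lie within 358.8 kb of chromosome 4, and the table held 19 genes there and within 500 kb on each side, of which 13 are not among the 10. Of these, 9 were tested, and none passed edgeR in T24 or UMUC3 (3 and 2 at an unadjusted p under 0.05, 1 and 1 by DESeq2). Of all 20721 tested genes, 2598 and 3490 had such a p, and DESeq2 called 963 and 1700. Between the lines 4 of the 9 passed, near the 41.4% of all genes that did. EREG and AREG, which encode ligands of the EGF receptor, lie on the far side of CXCL2. EREG stood at 37.4 and 35.9 CPM in T24 knockdown libraries against 74.0 CPM in the T24 control (log2 -1.02 ± 0.15, edgeR adjusted p = 0.125). AREG stood at 7.72 and 8.93 CPM in T24 knockdown libraries against 2.12 CPM in the T24 control (log2 1.97 ± 0.39, edgeR adjusted p = 0.187). ANKRD17, on the other side of the cluster, encodes an ankyrin repeat protein and stood at 168 and 169 CPM in T24 knockdown libraries against 122 CPM in the T24 control (log2 0.46 ± 0.11, edgeR adjusted p = 0.243). In UMUC3 ANKRD17 was at 134 and 147 CPM in knockdown libraries against 186 CPM in the control (-0.40 ± 0.105, edgeR adjusted p = 0.195), the directions of most ELR CXC genes. Of these 3 neighbours, AREG and ANKRD17 had values above 0 in T24 and EREG below, and all 3 were chosen after their values were seen.

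**Figure D4:**
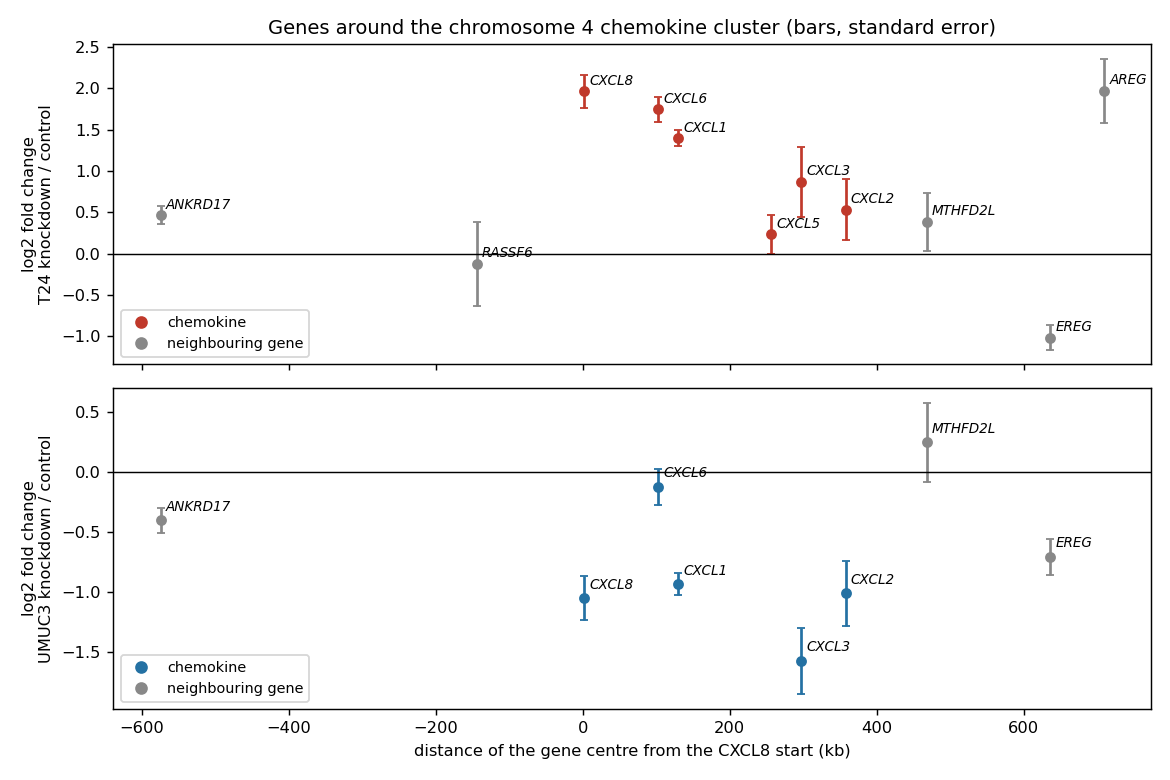
Log2 fold change of knockdown over control (vertical axes; bars, SE) for genes of at least 1 CPM in a library of the line, against the distance of the gene centre from the CXCL8 start in kb; T24 above, UMUC3 below. The points of the chemokines lie above 0 in T24 and below 0 in UMUC3, where CXCL5 is not drawn. The bars of CXCL5 in T24 and CXCL6 in UMUC3 cross 0. EREG lies below 0 in both, AREG is above 0 in T24, and ANKRD17 is above 0 in T24 and below 0 in UMUC3.

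The lists that follow hold genes known to act on these chemokines or with them. Over all 20721 tested genes, 2598 in T24 and 3490 in UMUC3 had an unadjusted edgeR p under 0.05. DESeq2 called 963 and 1700. The list counts below are to be read beside these. Among 17 NF-kB factors and inhibitors, all tested, none passed edgeR in T24 (4 at an unadjusted p under 0.05, 1 by DESeq2), and in UMUC3 3 fell and none rose (0.217% of all genes fell; DESeq2 called 10 of 17). TRAF1, an adaptor of TNF receptors, stood at 4.17 and 2.83 CPM in UMUC3 knockdown libraries against 47.7 CPM in the UMUC3 control (log2 -3.77 ± 0.27, edgeR adjusted p = 0.0431). NFKBIE, which encodes the inhibitor IkB-epsilon, stood at 9.75 and 9.80 CPM against 51.6 CPM in the control (-2.40 ± 0.17, adjusted p = 0.0431). NFKBIA, which encodes IkB-alpha, was at 73.6 and 67.1 CPM against 202 CPM in the control (-1.52 ± 0.13, edgeR adjusted p = 0.0470). All 3 are known transcriptional targets of NF-kB as well as members of its pathway.

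In T24 edgeR called none of these 3, and DESeq2 called NFKBIE (log2 -0.80, DESeq2 adjusted p = 0.0112). NFKBIA was at 46.6 and 50.1 CPM in T24 knockdown libraries against 37.2 CPM in the T24 control, and NFKBIE at 11.3 and 11.3 CPM against 19.7 CPM (log2 -0.80 ± 0.17, edgeR adjusted p = 0.215). The difference between the lines was 1.895 ± 0.19 for NFKBIA (edgeR adjusted p = 0.111) and 4.02 ± 0.41 for TRAF1 (adjusted p = 0.113), neither past the threshold. The list's median log2 fold change was 0.09 in T24 and -1.03 in UMUC3, and over all tested genes it was 0.00. In UMUC3 12 of 17 were negative, against 9720 of all 20721 tested genes.

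Among 13 AP-1 and C/EBP factors, JUN rose in T24, as did 0.0917% of all genes, and none passed in UMUC3 by edgeR (8 at an unadjusted p under 0.05, 5 by DESeq2). JUN, the transcription factor subunit c-Jun, was at 272 and 265 CPM in T24 knockdown libraries against 7.89 CPM in the T24 control (log2 5.09 ± 0.09, edgeR adjusted p = 0.00695), and at 1099 and 1085 CPM in UMUC3 knockdown libraries against 784 CPM in the UMUC3 control. The difference of its effect between the lines passed (4.61 ± 0.105, edgeR adjusted p = 0.0185). In UMUC3, JUND (log2 1.146 ± 0.14, adjusted p = 0.0702) and JUNB (-1.01 ± 0.14, edgeR adjusted p = 0.0836) had the smallest p. Leaving out any 1 knockdown library ended the edgeR calls of all genes in the knockdown comparisons, so that refit cannot judge single genes. Against the control of the line, the log2 ratios of the paired knockdown libraries were 5.107 and 5.068 for JUN in T24. In UMUC3 they were -3.515 and -4.077 for TRAF1, -2.404 and -2.396 for NFKBIE, and -1.453 and -1.587 for NFKBIA.

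**Figure D5:**
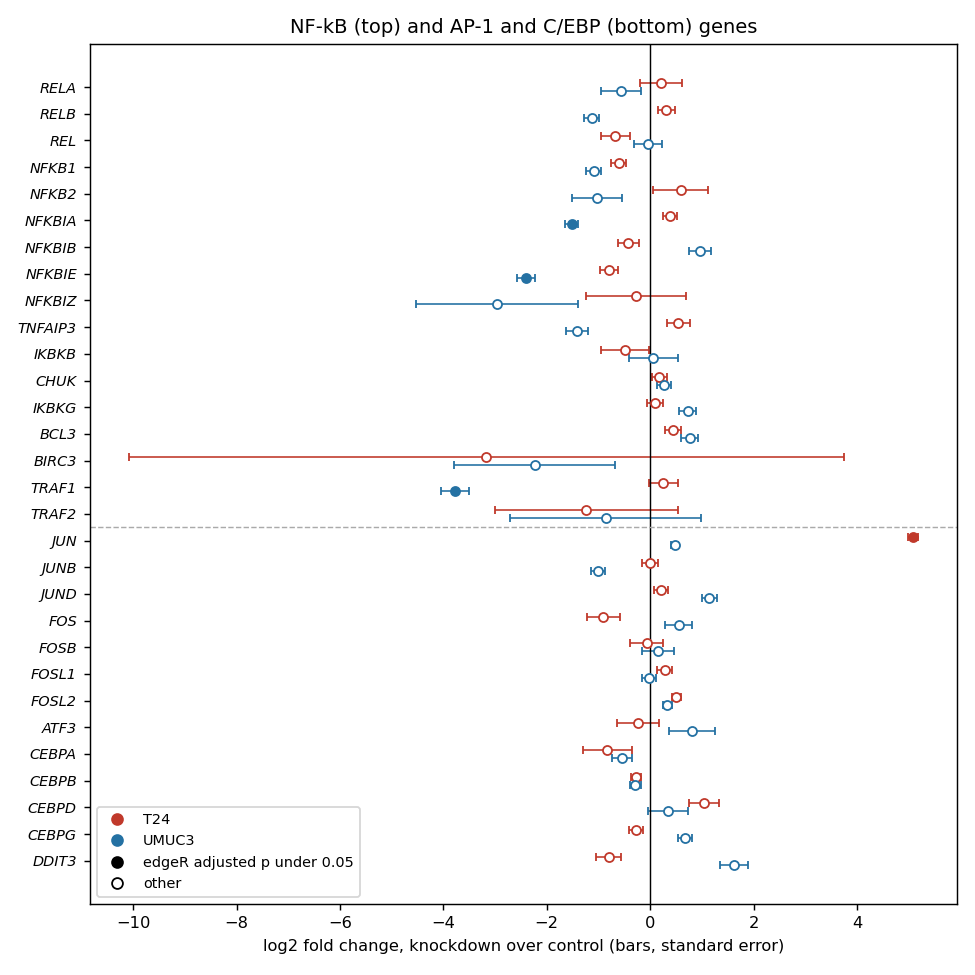
Log2 fold change of knockdown over control (horizontal axis; bars, SE) for NF-kB genes (upper block) and AP-1 and C/EBP genes (lower block), T24 in red and UMUC3 in blue, with filled points where edgeR's adjusted p was under 0.05. JUN in T24 stands far to the right, and TRAF1, NFKBIE and NFKBIA in UMUC3 are the filled points to the left.

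Among 29 inducing cytokines and their receptors, 26 were tested and none passed edgeR in T24 or UMUC3 (9 and 5 at an unadjusted p under 0.05, 2 and 3 by DESeq2). IL1RAP, the accessory chain of the interleukin-1 receptor, was at 90.7 and 79.7 CPM in T24 knockdown libraries against 17.8 CPM in the T24 control (log2 2.26 ± 0.18, edgeR adjusted p = 0.0701). Between the lines 14 were higher and 4 lower in T24, where 22.2% and 19.2% of all genes were. CSF3, the granulocyte growth factor, was at 55.6 and 49.4 CPM in T24 knockdown libraries, 28.9 CPM in the T24 control, with 0 counts in all 3 UMUC3 libraries, which allows up to 0.0174 CPM. TNF was at 4.37 and 3.08 CPM in T24 knockdown libraries, 2.46 CPM in the T24 control, again with 0 counts in UMUC3. TLR4, the receptor for bacterial lipopolysaccharide, was at 91.8 and 100.3 CPM in T24 knockdown libraries, 145 CPM in the T24 control, against 0.358 CPM at most in UMUC3 libraries. The edgeR adjusted p between the lines was 0.00111 for CSF3, 0.0073 for TNF and 0.00063 for TLR4.

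None of the 10 tested regulators of inflammatory mRNA stability and none of the 12 shedding and processing proteases passed edgeR in either line. At an unadjusted p under 0.05 there were 3 and 4 stability regulators in T24 and UMUC3 (1 and 3 by DESeq2), and 5 and 5 proteases (4 and 1 by DESeq2). ADAM17, a sheddase, stood at 82.0 and 79.1 CPM in T24 knockdown libraries against 48.8 CPM in the T24 control (log2 0.725 ± 0.11, edgeR adjusted p = 0.134). MMP9, a gelatinase, was at 3.85 and 3.35 CPM in UMUC3 knockdown libraries against 33.5 CPM in the UMUC3 control (-3.22 ± 0.255, edgeR adjusted p = 0.063) and had 0 counts in T24. Of 9 surface proteoglycans tested, which bind chemokines through heparan sulfate, 1 rose in UMUC3, where 0.43% of all genes did. This was SDC4, at 570 and 564 CPM in knockdown libraries against 226 CPM in the control (log2 1.33 ± 0.075, edgeR adjusted p = 0.0367). Its log2 ratios to the control were 1.336 and 1.322 in the paired libraries. Its call ended with any 1 knockdown library left out, as did those of all genes in the knockdown comparisons.

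Other chemokines and the chemokine receptors were scarce. Of 36 other chemokines, 11 had rows and 4 were tested; their summed level was 4.40 and 3.01 CPM in T24 knockdown libraries against 1.65 CPM in the T24 control, and it was 2.28 and 2.89 CPM in UMUC3 knockdown libraries against 3.71 CPM in the UMUC3 control. Of 23 receptors, 11 had rows and 6 were tested, and none passed in a knockdown comparison by edgeR, at an unadjusted p under 0.05 or by DESeq2; CCR10 and CCRL2 were the only ones over 1 CPM on average. CCRL2 was higher in T24 than in UMUC3 (log2 2.63 ± 0.43, edgeR adjusted p = 0.0128).

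Among markers of other cell types, those of leukocytes were low apart from CD68. The 12 immune markers had 6 rows, and their sum was 7.63 and 8.49 CPM in T24 knockdown libraries against 9.34 CPM in the T24 control, and it was 55.4 and 52.3 CPM in UMUC3 knockdown libraries against 31.4 CPM in the UMUC3 control. Most of that was CD68, at 54.1 and 51.2 CPM in UMUC3 knockdown libraries against 28.2 CPM in the control. PTPRC, the pan-leukocyte CD45, was at most 0.0673 CPM, and LYZ at most 0.0713 CPM. The endothelial and fibroblast list (5 of 7 with rows) summed to 70.4 and 72.9 CPM in T24 knockdown libraries against 79.5 CPM in the T24 control, nearly all CDH5, and to 9.43 and 11.4 CPM in UMUC3 knockdown libraries against 6.68 CPM in the UMUC3 control. Of the epithelial and urothelial list, KRT8 and KRT18 were present in both lines, while KRT19 and GATA3 stood at 511 to 543 CPM and 44.2 to 73.5 CPM in T24 and under 1 CPM in UMUC3, and CDH1 was at 0 or 0.135 CPM. The part of CD68 or CDH5 expression in the chemokine values was not tested.

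By distance over the 6 log2(CPM + 1) values, each centred on its gene's mean and compared over 11139 genes of at least 5 CPM, the genes nearest to CXCL1 were GAREM1 (0.310), GATA6 (0.473) and POU2F2 (0.571). Nearest to CXCL8 were CXCL6 (0.814), SIPA1L2 (0.819) and ITGA11 (0.854), and nearest to CXCL6 were SIPA1L2 (0.493), ITGA11 (0.541) and FLRT3 (0.576). SIPA1L2 stood at 11.3 and 12.3 CPM in T24 knockdown libraries against 4.26 CPM in the T24 control, and at 0.606 and 0.641 CPM in UMUC3 knockdown libraries against 1.06 CPM in the UMUC3 control.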

How the data were processed

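The deposited table holds raw read counts of transcripts in 6 libraries, with no normalisation by the authors. HISAT2 2.1.0, StringTie 1.3.3b, FastQC 0.11.5 and hg38 are named, without stated roles, per the submitters' processing notes. Strand and RNA selection are not given in the sources used here. Transcripts with no gene (14.86 to 16.1% of counts) were left out, and the rest were summed by gene. All 29 chemokine transcripts matched GENCODE release 29 in coordinates. Genes with at least 10 counts in 2 libraries and 30 in total were tested with edgeR 4.0.16 in R 4.3.3 (TMM, robust quasi-likelihood fit, 4 groups, 2 residual degrees of freedom, Benjamini-Hochberg over 20721 genes), in which a lone control is assumed to vary like the knockdown pairs. Paired knockdown libraries differed beyond sampling noise (chi-square per degree of freedom 119.6 in T24, 116.5 in UMUC3). DESeq2 1.42.0 was an alternative. The chemokines and lists were chosen with earlier results of these data known. From each list, genes that passed with a mean of 1 CPM were named, up to 3 per direction, and otherwise up to 2 with the smallest p; the report gives a part of these.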

Additional observations from a re-analysis of the deposited data

Results flagged for a closer look

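For 6 chemokines, both T24 knockdown libraries lay above the T24 control and both UMUC3 knockdown libraries lay below the UMUC3 control. With CXCL5, left aside here for its low UMUC3 counts, this held for 7 of 9, against 12.1% of tested genes. CXCL6 differed little in UMUC3 (log2 fold change -0.12 ± 0.15). The log2 difference of the knockdown effect, T24 minus UMUC3, was 2.33 for CXCL1, 1.55 for CXCL2, 2.44 for CXCL3, 1.87 for CXCL6, 3.02 for CXCL8 and 4.06 for CCL2. The same values chose these genes, so the difference was not tested independently of that choice, and none of them passed edgeR's adjusted threshold for it over all genes. In T24 the levels of CXCL2 and CXCL3 could be made up in part or whole by reads shared with CXCL1. For JUN the difference, 4.61, passed edgeR's adjusted threshold (adjusted p = 0.0185), with both knockdown libraries above the control in each line.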

How the results depend on the processing

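The number of genes called was 28 in T24, 134 in UMUC3, 12 for the difference and 8578 between lines. In the order T24, UMUC3, difference, it was 963, 1700 and 1120 with DESeq2, 43, 224 and 35 without the filter, 2, 13 and 5 with edgeR's earlier estimator, and 206, 575 and 157 among 4467 genes of stable transcript composition. It was 0 for each when any 1 knockdown library was left out, 25 in T24 without the UMUC3 control, and 5 for the difference with RLE size factors. Replicate numbers did not pair the libraries (correlation 0.0142, 2 pairs). A replicate block by title number could not be fitted; with the earlier estimator it gave 0 for each and 5074 between lines, and a block by column number gave 0 for each. Between lines, controls only gave 5049 and stable genes 2802. Of the 7 chemokines among the stable genes, 3 passed in T24, 4 in UMUC3 and 4 for the difference. The shares of stable genes that passed were 4.61%, 12.9% and 3.51%. The same values chose the chemokines, so nothing is read from these counts. The causes were not tested. Of 369 recomputed chemokine fold changes, 1 changed sign: CXCL1 between lines, -0.39 with controls only. With the earlier estimator TRAF1, NFKBIA and NFKBIE had adjusted p of 0.0607 to 0.0608 and SDC4 0.0530, while JUN passed. The earlier estimator, the stable genes and the title block with that estimator were added after seeing the data. Low counts limit CCL20, and CXCL5 in UMUC3.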
